A study of Mus musculus with 13 samples.

Results

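Fibroblasts of the lactating mouse mammary gland were compared with those of the pregnant gland in 1 single-cell RNA sequencing library per stage. The lactation library came from glands at day 10 of lactation and the pregnancy library from glands at day 14.5 of pregnancy. Each pooled 2 wildtype C57BL/6 females, and the methods describe pregnancies as first ones and litters as kept at a fixed number of pups. Cells had been sorted as negative for CD24, which removes most epithelium, and negative for the lineage markers CD31, CD45 and TER-119, which removes endothelium, leukocytes and red cells. A barcode, the tag shared by all transcripts of 1 droplet, was taken as a fibroblast when it held 500 to 7500 genes, at most 10% mitochondrial transcripts and at least 50 Dcn, Lum and Col1a2 molecules per 10000, with no molecule of Epcam, Pecam1, Rgs5, Sox10, Ptprc or Myog. This rule kept 8454 of 9525 barcodes in lactation and 11501 of 14424 in pregnancy, or 19955 of the 100523 fibroblast barcodes of the 13 libraries in the series. Molecules were counted by unique molecular identifiers (UMIs) and summed over these barcodes, giving 63009851 UMIs for lactation and 47521842 for pregnancy. Levels are CPM, a gene's UMIs divided by the total of its sum and multiplied by 1000000. In summed data, fewer cells of a kind and less RNA per cell cannot be told apart. The 8 milk protein genes, likely free RNA from secreting cells, were left out of the totals. With 1 library per stage there is no replicate error and no test, and the 95% intervals given with ratios cover counting error only.

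During pregnancy the mammary ducts branch and form alveoli, and after birth the alveolar cells secrete milk while contractile myoepithelial cells eject it. Stromal fibroblasts surround these structures, lay down collagen, laminin and other matrix, and release growth factors and chemokines. Most cells make cholesterol from acetyl-CoA through the mevalonate route, whose genes are switched on together by SREBP2 when membrane sterol is low. Interferon-stimulated genes are switched on together by STAT and IRF factors. The pregnancy to lactation step is also an endocrine one, since progesterone falls at birth and prolactin and glucocorticoids sustain milk secretion.

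Properties of the libraries bear on all that follows. The median fibroblast barcode held 7105 UMIs in lactation and 3990 in pregnancy, and 34 barcode sequences occurred in both libraries (0.357% of the smaller). The summed level of Gm42418, AY036118 and Lars2, genes whose loci overlap ribosomal RNA sequence, was 2788 CPM in puberty (4 weeks), 3299 CPM in adult and 3477 CPM in pregnancy. It was 18692 CPM in lactation, 13716 CPM in involution (day 4) and 19180 and 17506 CPM in the 2 placebo libraries, so lactation and pregnancy lay in different sets of libraries. Malat1 set lactation apart alone, at 32065 CPM against 20440 to 24334 CPM in the other wildtype libraries. The adult library (virgin, 9 weeks) and the placebo libraries (9 weeks, controls of a hormone treatment) came from wildtype females of the same age and lay in different sets. Per the methods, the placebo females had a placebo pellet implanted under the skin, so placebo and adult differ by this implant as well as by set. At a mean CPM of at least 5, the mean of the placebo libraries was at least 2-fold above adult for 211 genes (2.23%) and below it for 82 (0.867%). Among 9626 genes, the log2 ratio of lactation to pregnancy and that of placebo to adult had a Pearson r of 0.619, a description across genes measured in the same libraries. The labels do not say which libraries were prepared or sequenced together, so stage and library set cannot be told apart for any gene that follows this pattern. For this reason several main genes are given in all 7 wildtype libraries, and some of these against placebo as well as against pregnancy. Other genes are given in fewer libraries, many in pregnancy and lactation alone. For those genes the values printed here do not show whether they follow this pattern.

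**Figure D1:**
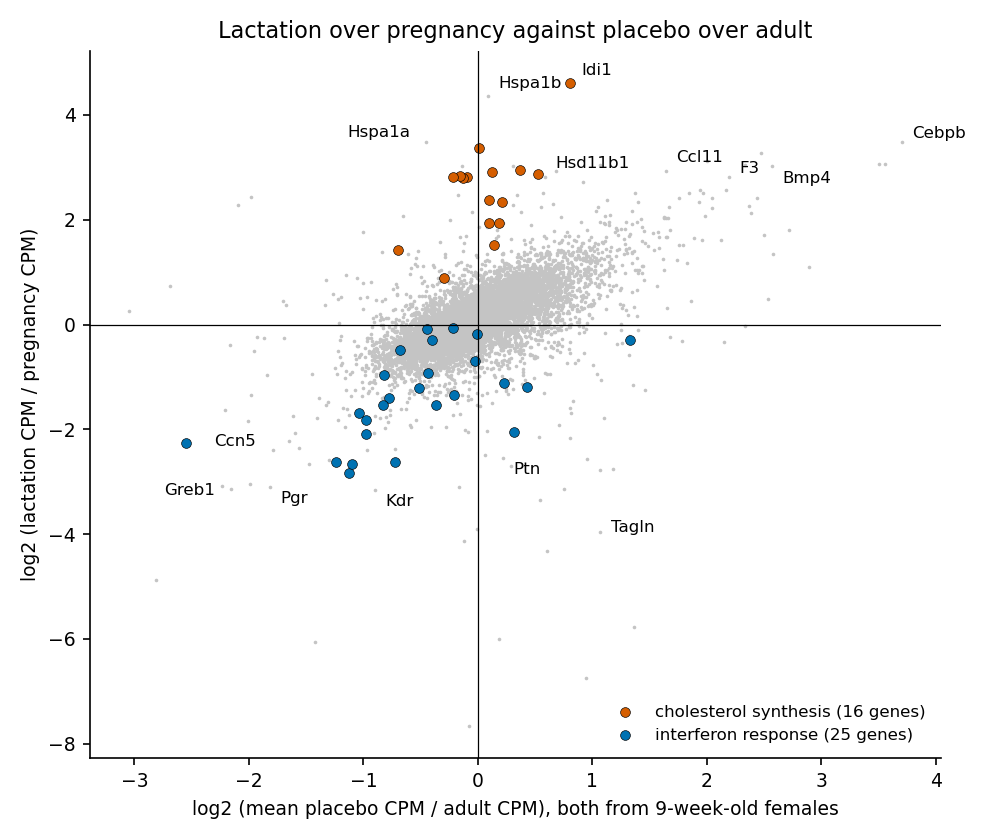
Each point is a gene with a mean level of at least 5 CPM. The horizontal axis is the log2 ratio of the mean placebo level to the adult level, both from 9-week-old females, the placebo ones with an implanted pellet. The vertical axis is the log2 ratio of lactation to pregnancy. Cebpb, F3, Bmp4 and Ccl11 lie far to the upper right and Pgr and Greb1 to the lower left, while the cholesterol genes (orange) lie high with a median horizontal position of 0.10.

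Markers of other cells were present and not equal between the stages. The 7 basal epithelial markers summed to 260 CPM in pregnancy and 6.18 CPM in lactation, and the 6 endothelial markers to 44.3 and 6.07 CPM. Acta2 alone gave 219 and 2.03 CPM of the basal sums, and Kdr alone 40.6 and 4.56 CPM of the endothelial sums. Kdr was spread over 13.1% of the pregnancy fibroblast barcodes, with at most 6 UMIs in a barcode, so the endothelial sums need not stand for endothelial cells. The 6 pericyte markers summed to 45.2 CPM in pregnancy and 55.8 CPM in lactation, the 16 other luminal secretory markers to 237 and 199 CPM, with 2 of the 4 tested ones 2-fold lower, the 11 immune markers to 6.52 and 5.53 CPM, and the 6 adipocyte markers to 7.22 and 4.62 CPM. Of these lists, Cd3e, S100a9 and Lep were at 0 in lactation, and S100a9 and Lep in pregnancy. Their part in the differences was not tested, except where barcodes were left out below. Milk protein transcripts, made by alveolar epithelium, reached 873 CPM in lactation fibroblast barcodes and 39.1 CPM in pregnancy ones. How much of any other gene came with such RNA was not estimated for lactation, since its Epcam-bearing barcodes were 7 and held immune (30625 CPM) and red cell (29681 CPM) markers above luminal ones (561 CPM). In pregnancy, the profile of 553 Epcam-bearing barcodes scaled to the milk transcripts would give 17.3% of Acta2, 15.7% of Tagln and 8.35% of Mylk. It would give under 1% of each other gene among the 15 highest and 15 lowest ratios. This scaling was not tested.

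Of 9628 genes with a mean level of at least 5 CPM, 505 (5.25%) were at least 2-fold higher in lactation and 210 (2.18%) at least 2-fold lower, 715 (7.43%) in all. The median gene was shifted by 0.07 on the log2 scale. The 2 placebo libraries, the only replicate pair among the 7 libraries, differed by 2-fold for 47 of 9422 genes (0.499%), and 95% of their genes differed by less than 0.49 on the log2 scale. That limit was exceeded by 34.5% of genes between lactation and pregnancy. Scaling by TMM gave 415 higher and 265 lower genes, and with the placebo mean in place of pregnancy 177 genes (1.85%) were higher and 141 (1.47%) lower. Lactation had the highest level of the 7 wildtype libraries for 345 of the 505 higher genes, against 30.7% of all genes, and the lowest for 163 of the 210 lower genes, against 10.7% of all genes. These shares were fixed in part by the choice of the genes on 2 of the 7 libraries.

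**Figure D2:**
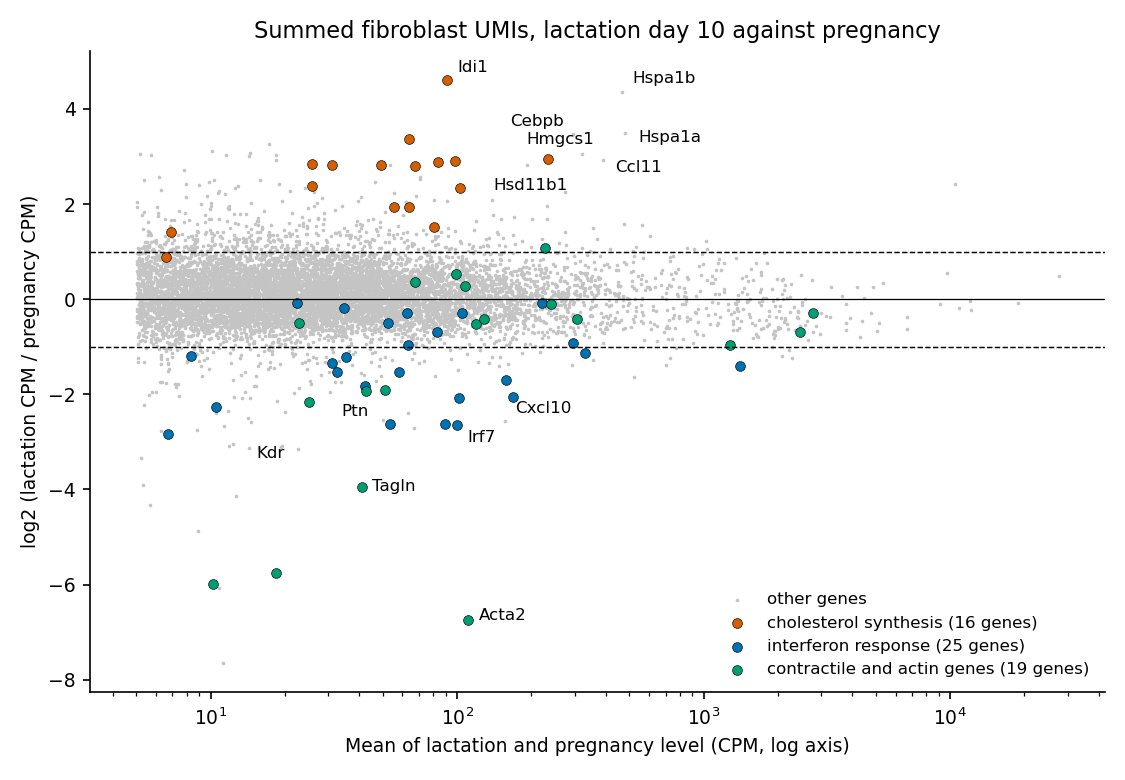
Each point is a gene. The horizontal axis is the mean of its lactation and pregnancy levels in CPM on a log axis, the vertical axis is the log2 ratio of lactation to pregnancy, and dashed lines mark 2-fold. The 16 cholesterol synthesis genes (orange) lie between 0.88 and 4.61, the 25 interferon response genes (blue) between -2.83 and -0.07, and the contractile genes (green) are spread, with Acta2 at -6.75.

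The cholesterol synthesis genes formed the leading group of lactation. Of the 18 genes of the list, 16 reached the level limit, and 15 of these were at least 2-fold higher and none lower, against 5.25% higher and 2.18% lower among all genes, with a median log2 ratio of 2.81. The list summed to 302 CPM in pregnancy and 1880 CPM in lactation, a ratio of 6.22. All 16 genes were highest in lactation among the 7 libraries, against 30.7% of all genes. Their median log2 ratio was 2.20 against the placebo mean, while placebo and adult differed by a median of 0.10. They also supplied 9 of the 15 named genes with the highest ratios at a mean of at least 20 CPM. Lss, lanosterol synthase, had a mean level under 5 CPM, at 1.35 CPM in pregnancy and 8.04 CPM in lactation.

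Along the route, Hmgcs1, which makes HMG-CoA, was at 67.5 CPM in puberty, 61.5 in adult, 53.1 in pregnancy, 412 in lactation, 50.2 in involution and 91.4 and 67.8 in the placebo libraries. The lactation level stood alone, and the other 6 libraries lay within a narrow range. The ratio of lactation to pregnancy was 7.77 (95% counting interval 7.46 to 8.10). Idi1, isopentenyl diphosphate isomerase (chromosome 13, 8885501 to 8892451, plus strand, GRCm38), had the highest ratio of any named gene. It was at 18.2 CPM in puberty, 14.3 in adult, 7.15 in pregnancy, 175 in lactation, 8.71 in involution and 27.3 and 22.9 in the placebo libraries. Its ratio was 24.4 (21.9 to 27.3) against pregnancy and 2.80 on the log2 scale against placebo. Its pregnancy level was the lowest of the 7, so the ratio to pregnancy was larger than the ratio to any other library.

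The later enzymes followed. Fdps, farnesyl diphosphate synthase, was at 16.9 CPM in pregnancy and 118 CPM in lactation. Fdft1, squalene synthase, was at 6.31 and 45.0 CPM, and Sqle, squalene epoxidase, at 12.2 and 85.8 CPM. Cyp51, the lanosterol demethylase, was at 20.01 and 147 CPM, and Msmo1, a methylsterol oxidase, at 11.3 and 116 CPM. Sc5d, a sterol desaturase, was at 26.6 and 101 CPM. Dhcr7 had the smallest ratio of the list, 0.88 on the log2 scale, and was the only tested member short of 2-fold.

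Single genes of sterol transport and regulation on the list were also higher. Stard4, a cytosolic sterol carrier, was at 7.68 CPM in pregnancy and 54.4 CPM in lactation. Insig1, the sterol-responsive retention factor of SREBP, was at 33.9 and 172 CPM, and Srebf2, which encodes SREBP2 itself, at 41.9 and 120 CPM with a ratio of 2.86 (2.73 to 3.01). Involution, 4 days after weaning of the pups, had the lowest level of the 7 libraries for these 3 genes.

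The 6 further mevalonate route enzymes that reached 5 CPM, a list added after the values were seen, had a median log2 ratio of 0.97, with 2 past 2-fold. All 6 were highest in lactation, against 30.7% of all genes. Nsdhl was at 8.86 CPM in pregnancy and 26.2 CPM in lactation, and Hsd17b7 at 17.6 and 46.4 CPM. Ebp, the sterol isomerase, was at 46.2 and 59.3 CPM. For 12 fatty acid synthesis genes, also added afterwards, the median was 0.83. Of these, 5 were 2-fold higher, against 5.25% of all genes, and 10 were highest in lactation, against 30.7%. Fads1, a fatty acid desaturase, was at 29.6 CPM in pregnancy and 85.7 in lactation, Elovl6 at 18.2 and 48.1 and Fasn, fatty acid synthase, at 31.5 and 51.4. The 9 tested genes of sterol efflux and storage had a median of 0.04. None was past 2-fold in either direction, against 7.43% of all genes, and 9 genes are too few to set this apart from that share. The 11 genes of the list summed to 1306 CPM in pregnancy and 958 CPM in lactation, against 1367 to 1446 CPM in the other libraries. Abca1, the cholesterol exporter, was at 111 CPM in pregnancy and 81.7 CPM in lactation, the lowest of the 7 libraries, and at 228 CPM in involution.

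**Figure D3:**
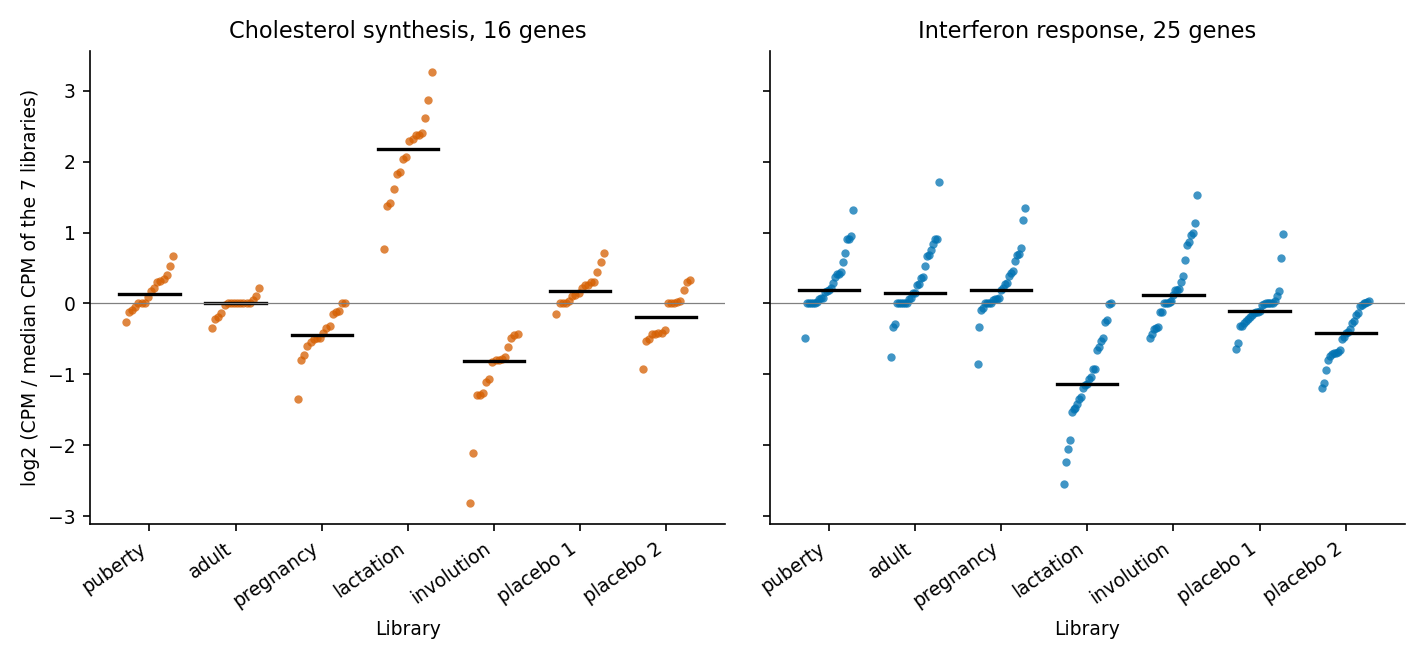
Each point is a gene, plotted as the log2 ratio of its level in a library to its median over the 7 wildtype libraries, for the 16 tested cholesterol synthesis genes and the 25 interferon response genes, with a bar at the median of each library. In lactation all 16 cholesterol genes lie above the line at 0 and the interferon genes at or below it.

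The higher level was spread over the fibroblasts. With each barcode thinned to 2000 UMIs, which left out 124 shallower barcodes in lactation and 1310 in pregnancy, the 18 genes had a mean of 3.57 UMIs per barcode in lactation and 0.58 in pregnancy. The other 5 libraries had means from 0.46 in involution to 0.96 in placebo 1. At least 1 UMI was found in 87.9% of lactation barcodes and 40.0% of pregnancy barcodes, and at least 3 in 55.8% and 3.66%. The 1% of lactation barcodes with the most UMIs of the list held 4.34% of them. Hmgcs1 alone was found in 43.4% of thinned lactation barcodes and 9.33% of pregnancy barcodes, or 72.1% and 17.2% before thinning. In thinned barcodes with a Pecam1 UMI outside the fibroblast rule it was found in 3.23% (31 barcodes) and 6.67% (45 barcodes), and in those with an Rgs5 UMI in 47.7% (88 barcodes) and 10.6% (85 barcodes).

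Barcodes with Rgs5, a pericyte marker, were unlike mixes in the 2 stages, with pericyte markers at 5437 CPM in lactation and 2580 CPM in pregnancy, basal markers at 1014 and 4097 CPM and milk transcripts at 466 and 9126 CPM. Acta2 alone gave 1014 and 3800 CPM of these basal sums. It was also found in 92.3% and 97.2% of thinned Rgs5 barcodes of the 2 placebo libraries, so the basal sums do not tell basal cells from pericytes. Summed over the list, Rgs5-bearing barcodes outside the fibroblast rule had 1683 CPM (1550 to 1824) in lactation and 378 CPM (321 to 443) in pregnancy. Pecam1-bearing barcodes had 544 CPM (426 to 685) and 304 CPM (238 to 382).

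**Figure D4:**
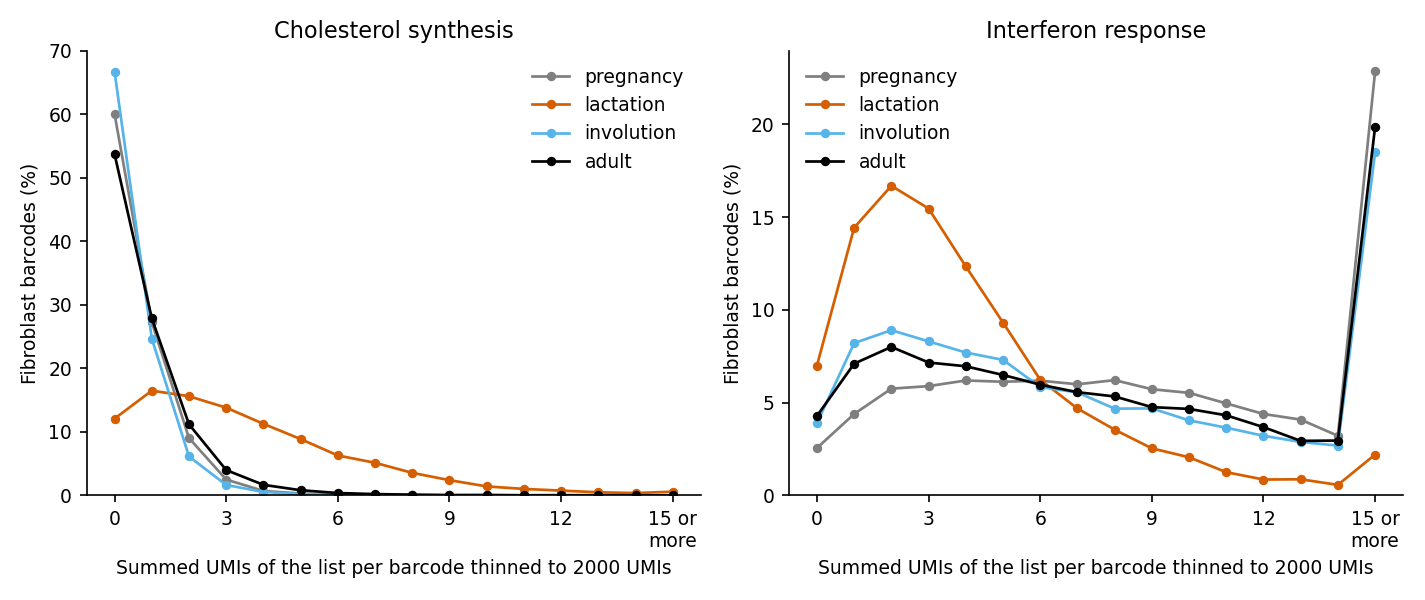
The horizontal axis is the summed UMIs of a list in a fibroblast barcode thinned to 2000 UMIs, with 15 or more pooled, and the vertical axis the percentage of barcodes of the library. For cholesterol synthesis the lactation curve (orange) is shifted to the right as a whole, with 12.1% of barcodes at 0 against 60.0% in pregnancy. For the interferon genes it is shifted to the left.

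Promoter sequence was available from RefSeq (GRCm38.p6) for 9 of the 16 tested cholesterol genes and was searched over the 250 bases before the start on both strands. The motif TCACNCCAC, the core of the sterol response element that SREBP binds, occurred in 1.05% of 32851 promoter windows and, among the 9 genes, in that of Hmgcs1. The 5-letter motif CCAAT, the core of sites for NF-Y, which binds beside SREBP, occurred in 33.8% of windows. All 9 genes, with 11 windows between them, held it in at least 1 window. So did 7 of the 19 interferon response genes with a window (22 windows). Counts of genes and shares of windows are unlike measures, and the motif describes the list and not its change. The Hmgcs1 match began 137 bases before the start and is shown with its flanks because this gene had the highest lactation level of the list (capitals mark the motif, chr13:119690189-119690247, plus strand).
Hmgcs1: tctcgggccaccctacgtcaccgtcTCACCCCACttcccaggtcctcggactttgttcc
These letters are a match only, and their use in these cells was not measured.

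Apart from the markers of other cells, the interferon response genes were the leading group that was lower in lactation. Of 25 genes, all at 5 CPM or more, 16 were at least 2-fold lower, against 2.18% of all genes, none was higher, and the median log2 ratio was -1.35. Lactation had the lowest level of the 7 libraries for 19 of the 25, against 10.7% of all genes. Against the placebo mean the median was -0.91, and placebo against adult had a median of -0.52, so part of the difference from pregnancy lay in the direction of the library sets. The sum of the list was 5018 CPM in pregnancy and 2107 CPM in lactation, with 5008 CPM in adult, 4450 CPM in involution and 4220 and 3225 CPM in placebo. Irf7, the transcription factor that amplifies the response, was at 190 CPM in puberty, 143 in adult, 172 in pregnancy, 27.3 in lactation, 54.1 in involution and 76.1 and 57.1 in placebo. Its ratio of pregnancy to lactation was 6.29. The placebo and involution levels of Irf7 lay between those of lactation and of the 3 other libraries.

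Among the effectors, Ifit1, which binds foreign RNA caps, was at 270 CPM in pregnancy and 65.2 CPM in lactation, and the other 5 libraries lay between 221 and 361 CPM. Placebo was not below adult for this gene, and its log2 ratio was -2.05 against pregnancy and -2.08 against placebo. Rsad2, the antiviral enzyme viperin, was at 91.8 and 14.8 CPM, against 40.3 to 105 CPM elsewhere. Ifit3 was at 154 and 25.1 CPM and Oasl2 at 165 and 38.8 CPM. Both were also lower in placebo than in adult. Ifit3 was at 76.0 and 68.2 CPM in placebo and 170 CPM in adult, and Oasl2 at 108 and 68.5 CPM and at 174 CPM. Isg15, the ubiquitin-like modifier, was at 241 and 74.7 CPM, and Ifi27l2a, the member with the highest counts, at 2034 and 767 CPM. Ifit3 has a near-identical copy, Ifit3b, and reads of the pair may have been split between them. Members with small differences were Ifi27 at 226 and 215 CPM, Ifit2 at 23.1 and 21.8 CPM and Xaf1 at 36.8 and 32.6 CPM.

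After thinning, the 25 genes had a mean of 4.20 UMIs per barcode in lactation, 10.1 in pregnancy, 9.12 in adult and 8.84 in involution. The mean was 10.7 in puberty and 7.59 and 5.98 in placebo. Irf7 was found in 5.21% of thinned lactation barcodes and 26.0% of pregnancy barcodes, or 14.9% and 39.3% before thinning. In the Pecam1 barcodes it was found in 9.68% and 6.67%. In Pecam1-bearing barcodes the list summed to 3620 CPM (3303 to 3960) in lactation and 2678 CPM (2474 to 2894) in pregnancy. These barcodes were unlike mixes, since endothelial markers summed there to 7203 CPM in lactation and 2302 CPM in pregnancy, and basal markers to 7.56 and 9126 CPM. Acta2 gave 7.56 and 7367 CPM of these basal sums. In Rgs5-bearing barcodes it summed to 1466 CPM (1342 to 1598) and 2459 CPM (2308 to 2617), in barcodes that were also unlike mixes.

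RefSeq promoter windows, 22 in all, were present for 19 of the 25 genes. The motif searched was GAAA, any 2 bases and GAAA again, the repeat of the interferon-stimulated response element. In the 250 bases before the start, 12 of the 19 genes held it in at least 1 window, against 2.98% of all windows. The list was made of interferon-induced genes, so this describes the list and not its change. Matches are shown for 4 genes with low lactation levels, each with 25 bases on either side and the motif, or its reverse complement, in capitals. The windows are chr19:34640760-34640819 (plus strand), chr19:34583348-34583407 (plus strand), chr12:26456538-26456597 (minus strand) and chr4:156200856-156200915 (minus strand).
Ifit1: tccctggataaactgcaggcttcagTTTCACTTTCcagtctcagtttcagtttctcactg
Ifit3: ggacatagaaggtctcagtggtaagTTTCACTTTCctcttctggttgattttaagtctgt
Rsad2: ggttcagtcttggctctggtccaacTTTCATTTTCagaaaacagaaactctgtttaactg
Isg15: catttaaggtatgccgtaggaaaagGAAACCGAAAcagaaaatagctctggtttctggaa
Only 1 match per gene is in capitals. Isg15 held overlapping matches. Ifit1 held another match 85 bases before the start, in lower case in its window. Ifit3 held another at 122 bases, which its window does not show in full. Ifit3b carries the same window as Ifit3.

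Chemokines divided. Of 26 tested chemokine and cytokine genes, 6 were 2-fold higher and 4 lower, against 5.25% of all genes higher and 2.18% lower. Ccl11, eotaxin, which attracts eosinophils, was at 132 CPM in puberty, 135 in adult, 90.2 in pregnancy, 689 in lactation, 474 in involution and 425 and 418 in placebo. Its ratio to pregnancy was 7.64 (7.40 to 7.88), but it was also high in placebo, and the log2 ratio to placebo was 0.71. Ccl11 was found in 59.4% of thinned lactation barcodes and 14.4% of pregnancy barcodes (83.3% and 23.8% before thinning), against 3.23% of 31 lactation Pecam1 barcodes and 0 of 45 pregnancy ones, which allows a share of up to 6.67%. In lactation Rgs5 barcodes it was found in 58.0%. Cxcl12, a chemokine for lymphocytes and progenitor cells, was at 273 and 565 CPM and did not follow the library sets, with 257 CPM in adult and 260 and 213 CPM in placebo. Lifr, the receptor for LIF, was at 19.5 CPM in pregnancy and 91.8 CPM in lactation, above the 57.1 CPM of involution and the 26.1 to 32.2 CPM of placebo. In the other direction, Cxcl10, an interferon-induced chemokine for T cells, was at 638 CPM in puberty, 297 in adult, 267 in pregnancy, 45.4 in lactation, 459 in involution and 728 and 423 in placebo. Cxcl9 was at 92.4 and 38.9 CPM and Il1rl1, the receptor for IL-33, at 30.4 and 6.86 CPM.

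Stress genes and Cebpb were among the highest ratios and were also high in other libraries. Hspa1b and Hspa1a, near-identical inducible heat shock genes whose reads may be shared, were at 43.3 and 78.7 CPM in pregnancy and 891 and 884 CPM in lactation. They were at 1019 and 1002 CPM in involution, 225 and 309 CPM in adult and 196 to 256 CPM in placebo. Of the 13 heat shock genes, 3 were 2-fold higher, against 5.25% of all genes, with a median of 0.72 against pregnancy and 0.22 against placebo. Cebpb, a transcription factor of acute stress and differentiation, was at 48.5 CPM in pregnancy and 539 CPM in lactation, and at 55.7 CPM in puberty, 60.8 in adult, 748 in involution and 544 and 1043 in placebo. Its log2 ratio was 3.48 against pregnancy and -0.56 against placebo. F3, tissue factor, followed the same split, at 13.3 CPM in pregnancy, 93.1 in lactation and 72.7 to 90.5 in placebo. Among the 26 immediate early genes, 2 were 2-fold higher, a share near that of all genes, and the median was 0.19. The effect of dissociation on these genes was not tested.

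Hormone receptors were measured whatever their change. Pgr, the progesterone receptor, was at 43.5 CPM in puberty, 41.1 in adult, 34.8 in pregnancy, 4.08 in lactation, 11.7 in involution and 9.59 and 13.7 in placebo. Greb1, a target of estrogen and progesterone receptors, was at 19.0, 28.6, 25.7, 2.94, 6.80, 6.03 and 6.82 CPM in the same order. Lactation was the lowest for both, and the library sets also separated them, with log2 ratios of placebo to adult of -1.82 and -2.15. The log2 ratios of lactation to pregnancy were -3.09 and -3.13, and to placebo -1.51 and -1.13. Pgr was found in 0.780% of thinned lactation barcodes and 5.29% of pregnancy barcodes (2.57% and 8.83% before thinning). It was found in 0 of the 45 Pecam1 and 0 of the 85 Rgs5 barcodes of pregnancy, which allows shares of up to 6.67% and 3.53%. Esr1, the estrogen receptor, was at 70.8 and 86.6 CPM, and Nr3c1, the glucocorticoid receptor, at 139 and 216 CPM. Of the 16 tested genes of this list, 3 were 2-fold lower, against 2.18% of all genes, and 1 was higher, near the 5.25% of all genes.

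Of the same list, Hsd11b1, which regenerates active glucocorticoid inside cells, was at 34.8 CPM in puberty, 92.0 in adult, 47.4 in pregnancy, 335 in lactation, 139 in involution and 141 and 135 in placebo. It was highest in lactation, with a ratio of 7.07 (6.77 to 7.38) to pregnancy and a log2 ratio of 1.28 to placebo. It was found in 34.2% of thinned lactation barcodes and 8.27% of pregnancy barcodes (56.2% and 13.2% before thinning). It was found in 0 of the 31 Pecam1 and 0 of the 88 Rgs5 barcodes of lactation, which allows shares of up to 9.68% and 3.41%. Zbtb16, a glucocorticoid and progesterone target, was at 122 CPM in pregnancy, 39.9 CPM in lactation and 26.7 and 55.3 CPM in placebo, and Fkbp5, another glucocorticoid target, was at 22.7 and 23.1 CPM. For prolactin and growth hormone signalling, 1 of 12 tested genes was 2-fold higher and 1 lower, counts too small to set apart from the 5.25% and 2.18% of all genes. Prlr, the prolactin receptor, was at 8.86 and 3.70 CPM, and Ghr, the growth hormone receptor, at 49.1 and 68.3 CPM. Cish and Socs2, feedback inhibitors induced by these receptors, were at 31.2 and 28.0 CPM and at 162 and 108 CPM.

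Among secreted factors, Stc2, stanniocalcin 2, a secreted glycoprotein that inhibits the IGF-releasing protease pappalysin, was at 6.67 CPM in puberty, 4.78 in adult, 14.2 in pregnancy, 78.3 in lactation, 18.4 in involution and 6.82 and 5.33 in placebo. Its ratio was 5.53 (5.10 to 6.00) to pregnancy, and its log2 ratio to placebo was 3.69. Igf1 was at 284 CPM in pregnancy and 358 CPM in lactation. Igfbp3 was at 77.3 and 185 CPM and Igfbp2 at 24.6 and 11.04 CPM, and these were the genes past 2-fold among the 11 tested IGF genes, against 7.43% of all genes. Igfbp3 was at 135 and 181 CPM in placebo, and its difference from placebo was 0.23 on the log2 scale. G0s2, an inhibitor of triglyceride breakdown, was at 34.9 CPM in pregnancy, 147 in lactation and 16.1 and 16.9 in placebo.

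Several basement membrane genes were higher in lactation. Of 15 tested basement membrane genes, 4 were at least 2-fold higher and none lower, against 5.25% of all genes higher and 2.18% lower, and the median log2 ratio was 0.76. Lactation was the highest of the 7 libraries for 11 of them and for 30.7% of all genes. The sum of the list was 17399 CPM in pregnancy and 20462 CPM in lactation, a ratio of 1.18, and its largest member was Sparc, a collagen-binding glycoprotein, at 11577 and 10164 CPM. The median against placebo was 0.86. Col4a1, a chain of type IV collagen, was at 749 CPM in puberty, 770 in adult, 1179 in pregnancy, 2324 in lactation, 1518 in involution and 875 and 743 in placebo. Lamc1, the laminin gamma 1 chain, was at 348 and 869 CPM with a ratio of 2.50 (2.46 to 2.54), and Lama2 at 338 and 724 CPM. Smoc2, a matricellular protein of basement membranes, was at 284 and 840 CPM, against 188 to 470 CPM in the other libraries. Smoc2 was found in 46.2% of thinned lactation barcodes and 28.4% of pregnancy barcodes (61.1% and 38.9% before thinning), against 3.23% and 4.44% of Pecam1 barcodes. Col18a1 and Lamb2 lay in the other direction, at 197 and 138 CPM and at 241 and 163 CPM.

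Of the 15 tested fibrillar and associated collagen genes, none was past 2-fold in either direction, against 7.43% of all genes. With 15 genes this cannot be set apart from that share. The median of these genes was -0.08. Their sum was 48956 CPM in pregnancy and 46874 CPM in lactation, and 25866 CPM in adult. In collagen crosslinking and processing, 1 of 20 genes was higher and 2 lower, against 5.25% of all genes higher and 2.18% lower. Lox, lysyl oxidase, was at 238 and 472 CPM, just short of 2-fold, and at 717 CPM in involution. Of 23 matrix proteases and inhibitors, 3 were higher and 2 lower, against the same shares of all genes. Plau, urokinase, was at 21.1 CPM in pregnancy, 121 in lactation, 123 in involution and 55.4 and 68.2 in placebo, with a ratio of 5.72 (5.36 to 6.12). Timp1 was at 91.4 and 41.9 CPM. Mgp, matrix Gla protein, was at 594 and 1226 CPM and reached 4534 CPM in involution.

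Acta2 had the largest difference of the named genes, and its pregnancy level rested on few barcodes. Acta2, smooth muscle actin (chromosome 19, 34241090 to 34255590, minus strand), was at 45.7 CPM in puberty, 17.8 in adult, 219 in pregnancy, 2.03 in lactation, 2.45 in involution and 25.7 and 43.0 in placebo. Its ratio of pregnancy to lactation was 108. In pregnancy, 200 barcodes (1.74%) with 5 or more Acta2 UMIs held 88.4% of the Acta2 UMIs, and 68.0% of these barcodes also held a UMI of the basal keratins Krt14, Krt5 or Krt17. Of the pregnancy barcodes with no Acta2 UMI, 2.39% did. In lactation 3 barcodes had 5 or more Acta2 UMIs. The 1% of pregnancy barcodes with the most UMIs held 78.2% of those of Tagln (transgelin) and 59.4% of those of Mylk. Tagln was at 30.2 CPM in puberty, 16.05 in adult, 77.3 in pregnancy, 4.99 in lactation, 3.14 in involution and 27.04 and 40.3 in placebo. Mylk, myosin light chain kinase, was at 40.9 CPM in pregnancy and 9.18 CPM in lactation. Its level was 12.1 CPM in puberty, 7.895 in adult, 19.2 in involution and 12.4 and 15.3 in placebo. Pregnancy was the highest of the 7 libraries for both Tagln and Mylk, and lactation was the lowest for neither.

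Leaving out barcodes with a UMI of Krt14, Krt5, Krt17, Krt8 or Krt18, an alternative chosen after these values were seen, kept 10903 pregnancy and 8419 lactation barcodes. The log2 ratio of Acta2 became -4.90 in place of -6.75, that of Tagln -2.39 in place of -3.95 and that of Mylk -1.02 in place of -2.16. The counts of genes became 519 higher and 198 lower, and the medians of the cholesterol and interferon lists were 2.81 and -1.36. Without the barcodes scored highest for doublets, the log2 ratio of Acta2 was -4.71, that of Tagln -1.87 and that of Mylk -0.94. In Epcam-bearing pregnancy barcodes Acta2 was at 14463 CPM, and basal markers were also high in the Pecam1-bearing ones (9126 CPM summed, 7367 CPM of it Acta2), so neither class was of 1 cell type. Of the 19 tested contractile and actin genes 7 were 2-fold lower and 1 higher, against 2.18% and 5.25% of all genes. Widely expressed members differed less, with Actb at 3033 and 1877 CPM, Actg1 at 1688 and 869 CPM and Vim at 3054 and 2501 CPM.

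Kdr and Ptn, also lower in lactation, were less concentrated in few barcodes than Acta2. The highest 1% of pregnancy barcodes held 16.5% of the UMIs of Kdr and 35.3% of those of Ptn, against 78.3% for Acta2. Not all lower genes were so spread, with 82.6% for Myh11 and 95.3% for Top2a. Kdr, the VEGF receptor 2, was at 21.4 CPM in puberty, 26.5 in adult, 40.6 in pregnancy, 4.56 in lactation, 14.6 in involution and 14.2 and 14.1 in placebo, with a ratio of pregnancy to lactation of 8.90. It was found in 7.51% of thinned pregnancy barcodes and 0.972% of lactation barcodes (13.1% and 2.64% before thinning), and in 28.9% and 83.9% of Pecam1 barcodes. The other 5 endothelial markers were each under 2 CPM in both stages. Ptn, pleiotrophin, a heparin-binding growth factor, was at 85.3 CPM in pregnancy, 14.7 in lactation, 16.8 in involution and 62.2 to 110 CPM in the other 4 libraries. It was low in the lactation and involution libraries alone and did not follow the library sets. Rgs2, an inhibitor of G protein signalling, was at 116 and 17.9 CPM, Ncam1, a cell adhesion molecule, at 33.7 and 6.48 CPM and Ccn5, a matricellular protein, at 106 and 20.2 CPM. Ccn5 was also low in placebo, at 31.2 and 26.0 CPM, and Ncam1 was at 15.5 and 15.6 CPM in placebo against 25.6 CPM in adult. Fbxw17, an F-box protein gene, was at 34.9 and 8.83 CPM, with 19.3 and 16.8 CPM in placebo against 31.6 CPM in adult.

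Of the 26 tested growth factor genes that could reach the epithelium, 5 were 2-fold higher and Ptn alone lower, against 5.25% of all genes higher and 2.18% lower, with a median of -0.03. Bmp4 was at 4.04 CPM in pregnancy and 32.9 CPM in lactation, but also at 24.5 CPM in involution and 20.6 and 26.5 CPM in placebo, and Wnt11 and Kitl followed the same split. Fgf10, Fgf2 and Hgf, growth factors for ductal epithelium, were at 36.3 and 25.9 CPM, 50.4 and 44.1 CPM, and 38.2 and 37.0 CPM.

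Of 13 tested cell cycle genes, Top2a and Stmn1 were 2-fold lower and none was higher, against 2.18% and 5.25% of all genes, and the median log2 ratio was -0.25. Mki67, which marks cycling cells, was at 8.73 CPM in pregnancy and 0.59 CPM in lactation, and Top2a at 10.8 and 0.54 CPM. In puberty they were at 10.96 and 14.9 CPM, and in adult Top2a was at 3.28 CPM. A Top2a UMI was found in 139 of the pregnancy fibroblast barcodes (1.21%) and 22 of the lactation ones (0.260%), or 0.795% and 0.0720% after thinning. It was found in 11.1% and 3.23% of thinned Pecam1 barcodes (45 and 31) and in 15.3% and 3.41% of Rgs5 ones (85 and 88), above the shares in fibroblasts. The 1% of pregnancy fibroblast barcodes with the most Top2a UMIs held 95.3% of them, with up to 17 in a barcode. The part of free or mixed RNA beside cycling fibroblasts was not tested. The other 17 genes of the list, Mki67 among them, had mean levels under 5 CPM.

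To see whether the differences sat in a kind of fibroblast, thinned barcodes were split by which of 4 marker sets had the most UMIs, at least 2 and more than any other. These are ranges of a score and not types, and 20.4% of lactation and 22.2% of pregnancy barcodes lay near a limit. The Pi16, Dpp4, Sema3c and Cd55 range held 3649 lactation and 4752 pregnancy barcodes, the Mmp3, Fabp4, Crabp1 and Mgp range 2973 and 2649, the Thbs4, Cilp, Bmp5 and Fndc1 range 766 and 1517, and the Gdf10, Clec11a and Fmo2 range 134 and 106. Since Mgp, Cd55, Fabp4 and Thbs4 themselves differed between the stages, these numbers were not compared. The summed cholesterol list was higher in lactation in every range, with log2 ratios from 2.30 in the Thbs4 range to 2.87 in the Pi16 range. The interferon list was lower in every range, from -1.08 to -1.33, and the heat shock list higher by 0.65 to 0.79. The summed basement membrane list did not move one way, at 0.35 in the Mmp3 range, 0.15 in the Gdf10 range, 0.09 in the Thbs4 range and -0.13 in the Pi16 range. Its largest member was Sparc, lower in lactation over all barcodes. Of single members, Col4a1 and Lama2 were higher in each of the 4 ranges, with log2 ratios of 0.15 to 1.19 and of 0.69 to 1.22.

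Single genes had ratios further apart, given here as values only, since markers that set the ranges changed between the stages and could move barcodes from one range to another. The log2 ratio of Ccl11 lay between 1.81 in the Gdf10 range and 3.59 in the Pi16 range. That of Smoc2 was 2.49 in the Gdf10 range, 2.45 in the Mmp3 range, 0.99 in the Pi16 range, 0.11 in the Thbs4 range and 2.08 in no range. That of Stc2 was 4.00, 2.66, 1.03, 2.34 and 2.98 in the same order, the first from only 35 lactation UMIs and 1 pregnancy UMI. That of Lox was 1.00, 1.24, -0.39, 1.12 and 0.74, so the Pi16 range was the 1 below 0. That of Pgr was -2.13, -3.32, -3.08, -0.98 and -3.38, the first from only 2 lactation and 4 pregnancy UMIs. Whether the ratios differ between ranges was not tested.

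**Figure D5:**
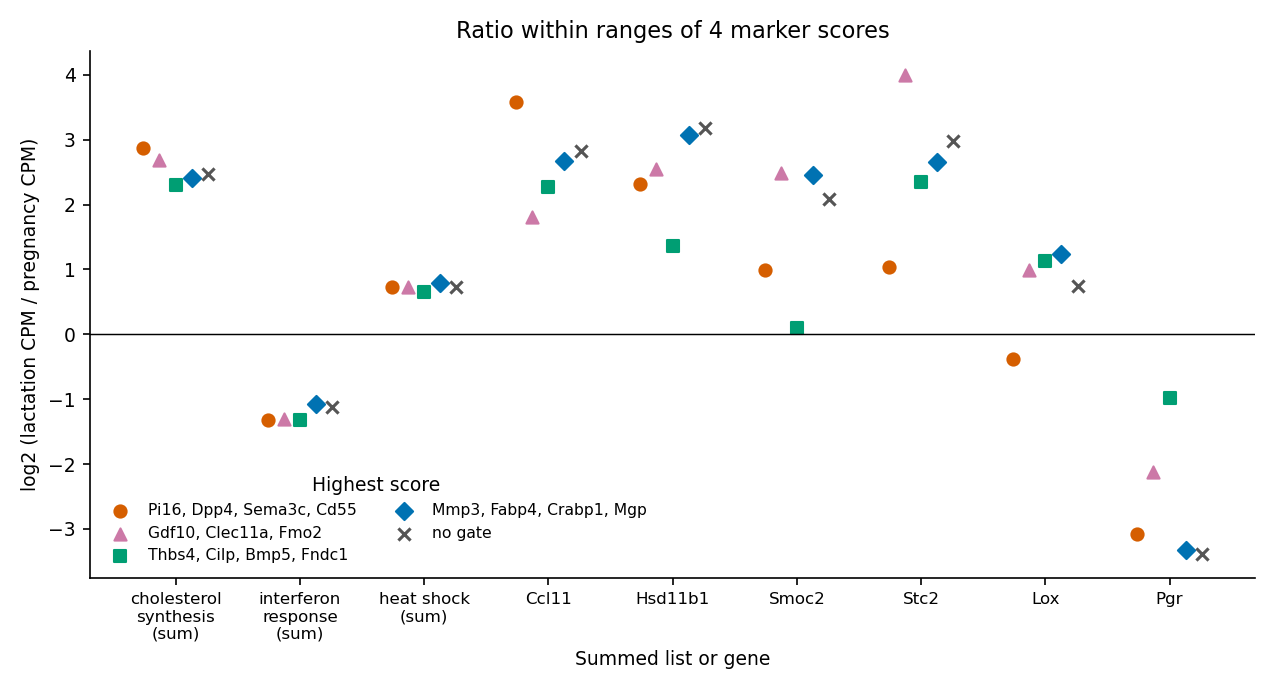
Each point is the log2 ratio of lactation to pregnancy for a summed list or a gene within the barcodes of 1 score range, marked by shape and colour, with crosses for barcodes in no range. The cholesterol points lie together between 2.30 and 2.87 and the interferon points between -1.33 and -1.08, while Smoc2, Stc2 and Lox are spread. The Gdf10 range points of Stc2 and Pgr rest on few UMIs.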

How the data were processed

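The values deposited by the authors are unnormalized counts of UMIs for 32285 genes in each droplet, made with Cell Ranger 6.1.2 on mm10 per the labels. The annotation release was not given in the sources used here. Libraries were 10x Chromium 3′ libraries. Fibroblast barcodes were chosen by the stated marker rule, without clustering. Doublets were not removed in the main values. As an alternative, the barcodes with the highest Scrublet scores (scanpy 1.11.5) were left out at 0.8% per 1000 barcodes, which was 7.15% of lactation and 10.6% of pregnancy barcodes. UMIs were summed per library without the 8 milk protein genes and scaled to CPM. A gene was called at a 2-fold ratio and a mean of at least 5 CPM. Ratio intervals are exact binomial (Clopper-Pearson) and summed levels have exact Poisson intervals, both at 95% and for counting error only. Named genes were the 15 highest and 15 lowest ratios at a mean of at least 20 CPM, without predicted, ribosomal protein, mitochondrial and rule genes, plus members of 46 gene lists chosen by size or role. Members and lists were chosen with earlier results of these data known. TMM and median-of-ratios factors came from edgeR 4.0.16 and DESeq2 1.42.0, used only for scaling. Gene positions are from GENCODE M21. Thinning drew 2000 UMIs per barcode without replacement. No UMI was corrected for free RNA. Some members of the lists are counted in the list values and not reported here by name.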

Additional observations from a re-analysis of the deposited data

Results flagged for a closer look

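Milk protein transcripts lay outside the comparison and stood out in the lactation library. The 8 genes summed to 873 CPM over lactation fibroblast barcodes (54944 UMIs) and to 39.1 CPM in pregnancy (1857 UMIs), against 0.0948 CPM in adult, 13.4 CPM in involution and 0 in both placebo libraries. Wap was at 231 CPM in lactation and 0.253 CPM in pregnancy, and Csn2 at 180 and 12.8 CPM. Keeping these genes in the totals left 504 genes 2-fold higher and 211 lower.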

How the results depend on the processing

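No paired analysis was possible because each stage has 1 library. The count of genes 2-fold higher, 505, was 415 with TMM, 417 with median-of-ratios factors and between 497 and 520 under the other barcode rules tried (no or a weaker marker exclusion, a fibroblast limit of 100, a mitochondrial limit of 5%, without the 15% of barcodes highest in Gm42418, AY036118 and Lars2, without keratin or doublet barcodes, and the mean of per-barcode CPM). The count lower, 210, was 265, 263 and between 196 and 226. By construction the counts moved with the limits. A mean of at least 20 CPM gave 250 higher and 101 lower genes, 10 UMIs over both libraries gave 1811 and 1275, a fold of 1.5 gave 1609 and 844, and a fold of 3 gave 131 and 78. Lactation against the placebo mean, chosen after the data were seen, gave 177 higher and 141 lower genes, the cause was not tested, and Cebpb changed sign to -0.56. All 30 named genes kept their sign under the other settings, and 29 or 30 stayed past 2-fold. With placebo as the reference 25 did. Counting intervals are wider at low levels, as for Fdft1 at a ratio of 7.14 (6.33 to 8.06), and with 1 library per stage the spread between animals is unknown.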
